A study of Mus musculus with 2 samples.

Results

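The genes described here are those that make, break down, bind and sense retinoic acid: Aldh1a1, Aldh1a2, Aldh1a3, Cyp26a1, Cyp26b1, Crabp1, Crabp2 and Rarb. They were chosen by gene symbol, with no measured value in the rule but with earlier results of these data known. They make up 8 of the 31053 genes in the count matrices, where each symbol matched 1 gene. Mouse eye cups at P0, the day of birth, had been freed of cornea, lens and optic nerve, dissociated with papain and captured as single cells for 3′ sequencing of transcripts tagged with a unique molecular identifier (UMI). The control library came from Myrf fl/fl eyes and the mutant library from Rx>cre Myrf fl/fl eyes, so the floxed Myrf allele was common to both, with 3 eye cups pooled for each. The Rx>cre transgene drives Cre recombinase from the early eye field, whose descendants are neural retina and retinal pigment epithelium (RPE), while periocular mesenchyme, vessels and blood arise outside it. With 1 library per genotype no test between genotypes was possible, and every 95% interval given below covers counting error only.

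Retinoic acid is made from vitamin A: an alcohol dehydrogenase step such as that of RDH10 yields retinaldehyde, which the ALDH1A enzymes oxidise to retinoic acid. CYP26 enzymes break it down, CRABP proteins carry it in the cytoplasm, and nuclear receptors of the RAR and RXR families bind it at DNA, with Rarb itself a classical transcriptional target. In the embryonic eye Aldh1a1 is known from the dorsal retina and Aldh1a3 from the ventral retina, Cyp26a1 from a band between them, and Aldh1a2 from tissue around the eye.

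Receptors of the RAR family bind direct repeats of a short half-site, and the repeat known from retinoic acid target promoters was searched as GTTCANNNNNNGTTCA on both strands of RefSeq promoter windows (GRCm38.p6, 250 bases before to 50 after the annotated start). Of the members, 6 had a promoter in that set and 2 of them held the repeat, Cyp26a1 and Rarb. Both stretches are shown because they are the only members in which the letters were found, with the half-sites and the bases between them in capitals.
Cyp26a1: aaattaGTTCACCCAAAGTTCAtcttta
Rarb: ggaaggGTTCACCGAAAGTTCActcgca
The Cyp26a1 stretch lies at chr19:37697770-37697797 and is written from the minus strand, opposite to the gene, with the repeat 32 to 17 bases before the RefSeq start. The Rarb stretch lies at chr14:16575507-16575534, is written from the minus strand, which is that of the gene, and has the repeat 52 to 37 bases before the RefSeq start. The same letters occurred in 25 of all 32851 promoters, or 0.0761%, and in 0 of the 17 other retinoid pathway genes with a promoter. The letters searched were set beforehand from repeats already known in such promoters, and Rarb is a classical target. These shares are therefore no test of enrichment, and a match is a description of sequence, not of a used site. In GRCm38 coordinates, the gene of Aldh1a1 spans chr19:20492715-20643465, Aldh1a2 chr9:71215789-71296243, Aldh1a3 chr7:66390890-66427517, Cyp26a1 chr19:37697798-37701536, Cyp26b1 chr6:84571414-84593908, Crabp1 chr9:54764748-54773110, Crabp2 chr3:87948666-87953376 and Rarb chr14:16430839-16819156. All are protein coding, with Aldh1a3, Cyp26b1 and Rarb on the minus strand. These spans are from GENCODE and the promoter starts from RefSeq: the RefSeq start used for Rarb lies inside the GENCODE span, far from its outer end, and that of Cyp26a1 a few bases inside it.

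After filtering and removal of predicted doublets, 12485 control and 10813 mutant cells remained, with a median of 4272 and 4821 UMIs per cell, and 59 cell barcodes occurred in both libraries. Clusters were joined into 27 populations, of which 19 had at least 50 cells in each library and 15 of these could be named from marker genes as resembling a cell type. Retinal progenitor-like cells were the most numerous, 4407 control and 5020 mutant cells, and RPE-like cells numbered 520 and 212. The pools differed in sex, since Xist without any Y-linked UMI was found in 7.14% of control and 70.5% of mutant cells, so sex and genotype cannot be told apart in comparisons of the whole libraries. Such cells were unevenly spread over the classes. They were 97 of the 4407 progenitor-like and 84 of the 520 RPE-like control cells, and 3686 of the 5020 and 82 of the 212 mutant cells. Mesenchyme transcripts lay outside mesenchyme at unequal levels: the summed level of 9 mesenchyme markers was 1484 CPM (UMIs scaled to a class total of 1000000) in control and 241 CPM in mutant progenitor-like cells, and 2768 and 337 CPM in RPE-like cells. As a check of the labels, Myrf was at 743 UMIs (226 CPM) in control and 64 UMIs (26.3 CPM) in mutant RPE-like cells, a log2 ratio of -3.06 [-3.50, -2.73].

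Among the 15 named cell classes of at least 50 cells in each library, the genes peaked in 6 in the control eye cup, some of them shared between genes. Smaller named populations, such as lens-like and glia-like cells, are left out of this order and given separately. The synthesis genes lay in retinal progenitor-like cells and mesenchyme-like cells, the breakdown genes in progenitor-like cells (Cyp26a1) and endothelial-like cells (Cyp26b1), and the binding and receptor genes in amacrine-like and mesenchyme-like cells. For 7 of the 8 members the named class with the highest level was the same in both libraries, the exception being Aldh1a3. Over the 15 named classes, log2(CPM + 1) in the control correlated with that in the mutant library at Pearson r of 0.94 for Rarb and Aldh1a2, 0.92 for Cyp26a1, 0.88 for Crabp1, 0.87 for Aldh1a3, 0.86 for Cyp26b1, 0.81 for Crabp2 and 0.80 for Aldh1a1; each point shares its library's depth and free RNA with the others. Since 3′ UMI counts depend on the transcript, levels are compared between cell classes within a gene and never between genes.

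**Figure D1:**
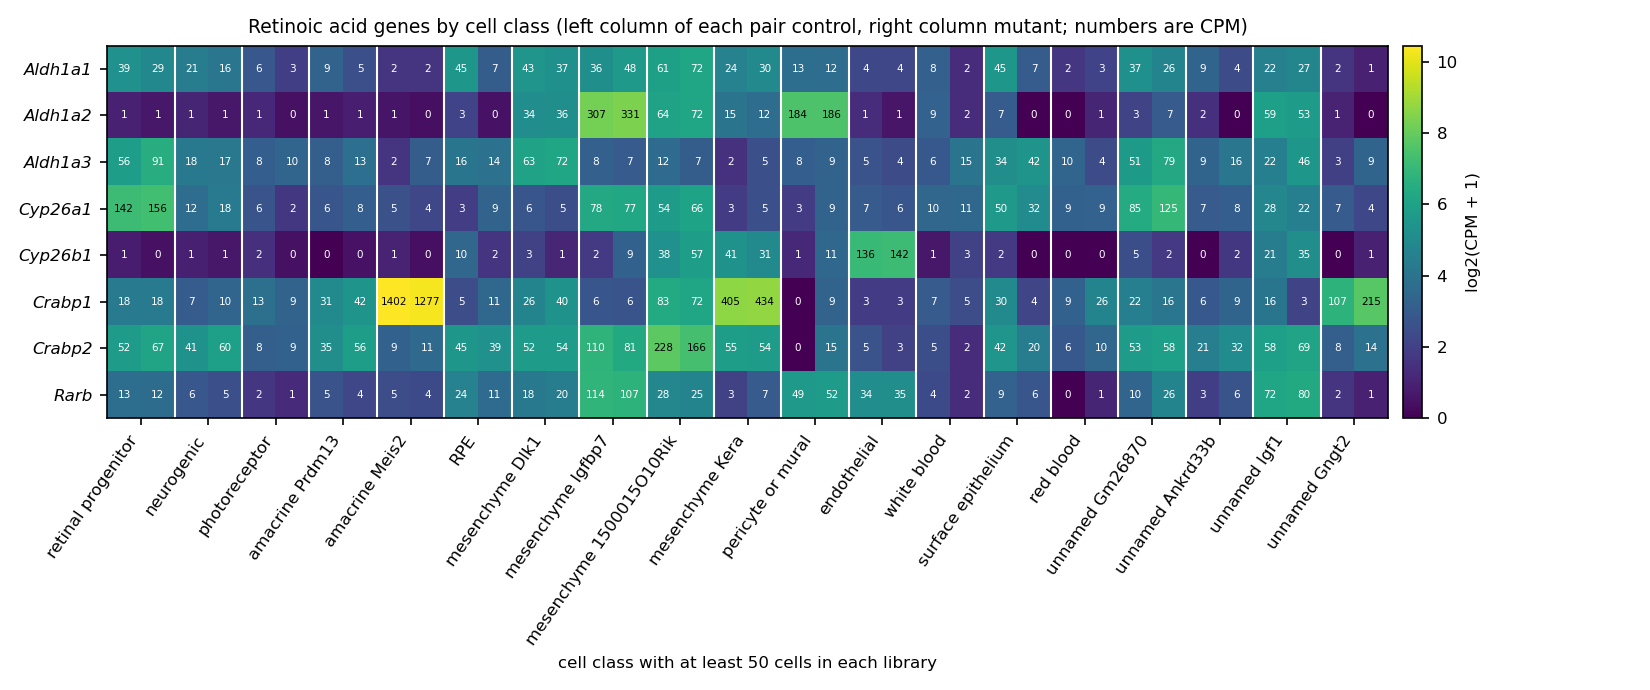
Heat map of each of the 8 genes (rows) in each named or unnamed cell class of at least 50 cells in each library (column pairs, control left and mutant right), with colour for log2(CPM + 1) and the CPM printed in each box. Aldh1a2 peaks in Igfbp7 mesenchyme-like cells (307 and 331 CPM), Cyp26a1 in progenitor-like cells (142 and 156 CPM), Cyp26b1 in endothelial-like cells (136 and 142 CPM) and Crabp1 in Meis2 amacrine-like cells (1402 and 1277 CPM).

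Of the synthesis genes, Aldh1a2 was the one tied to tissue around the eye. Its level was highest in a mesenchyme-like population led by Igfbp7, with 1149 UMIs in 333 control cells (307 CPM [289, 325]) and 657 UMIs in 182 mutant cells (331 CPM [306, 358]). Pericyte-like cells, the contractile cells of small vessels, came next with 143 control UMIs (184 CPM [155, 216]) and 122 mutant UMIs (186 CPM [155, 222]). The order was then the same in both libraries, with no overlap of intervals between neighbours: the mesenchyme-like population led by 1500015O10Rik (64.0 and 72.0 CPM), that led by Dlk1 (34.1 and 35.8 CPM) and that led by Kera, the gene of the corneal proteoglycan keratocan (15.1 and 12.3 CPM). Mesenchyme-like cells together held 80.6% of all Aldh1a2 UMIs in control and 81.4% in the mutant library, and pericyte-like cells 7.46% and 10.6%. The neural retina was near background for this enzyme: progenitor-like cells had 20 control and 15 mutant UMIs, 0.934 and 0.580 CPM.

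When each cell was thinned to 1000 UMIs, an Aldh1a2 UMI was found in 27.9% [23.2, 33.1] of control and 25.8% [19.6, 32.8] of mutant Igfbp7 mesenchyme-like cells; without thinning the shares were 81.4% and 83.5%. Red blood-like cells, which should lack these genes (median 3579 control and 11838 mutant UMIs before thinning, against 11019 and 10422.5 in the Igfbp7 class), had 0 of 113 thinned control cells with an Aldh1a2 UMI, which allows a share of up to 2.65%, and 1.20% of mutant cells. Within the Igfbp7 population, cells with an Aldh1a2 UMI had higher levels of the division genes Mki67 (17.3 against 1.78 CPM in control and 33.7 against 6.81 CPM in the mutant library), Pclaf, Atad2 and Top2a. They had lower levels of 1500015O10Rik (72.8 against 150 CPM in the control), which leads the neighbouring population. Here and below, genes named for a difference between cells with and without a member's UMI were picked after the values were seen, as the 4 largest differences in each direction shared by both libraries, and deeper cells have more chance of a UMI.

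Aldh1a3, the synthesis enzyme known from the ventral retina, had the highest ratio of mutant over control level of the 8 members in progenitor-like cells. However, the sex-linked groups of the control library, given below, differed as much. Progenitor-like cells held 1202 control UMIs (56.2 CPM [53.0, 59.4]) and 2353 mutant UMIs (91.1 CPM [87.4, 94.8]). The intervals lie apart and the log2 ratio was 0.69 [0.60, 0.80], under the 2-fold limit used below. In mesenchyme-like cells led by Dlk1 the gene had 292 control UMIs (63.4 CPM [56.3, 71.1]) and 181 mutant UMIs (72.0 CPM [61.9, 83.3]). This class and the progenitor-like class overlapped in the control library, so their order is not resolved there, whereas in the mutant library progenitor-like cells were higher. Surface epithelium-like cells followed with 43 and 35 UMIs (34.4 and 41.9 CPM), then neurogenic-like cells, which carry genes of the step from progenitor to neuron, with 78 and 88 UMIs (17.7 and 17.1 CPM).

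The share of thinned progenitor-like cells with an Aldh1a3 UMI was 4.63% [4.02, 5.29] in the control and 7.72% [6.99, 8.49] in the mutant library (16.6% and 26.4% without thinning). In red blood-like cells it was 3.54% of control cells, or 4 of 113, and 1.20% of mutant cells, so the control share in progenitor-like cells is close to a background that is itself poorly measured. The level in red blood-like cells was 9.64 and 4.44 CPM, below that in progenitor-like cells in both libraries.

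Aldh1a1, the synthesis enzyme known from the dorsal retina, was spread more evenly, and its progenitor level was lower in the mutant library. Among named classes of at least 50 cells in each library it was highest in 1500015O10Rik mesenchyme-like cells. These had 193 control UMIs (61.1 CPM [52.8, 70.4]) and 165 mutant UMIs (72.4 CPM [61.8, 84.3]). Progenitor-like cells held 824 control UMIs (38.5 CPM [35.9, 41.2]) and 740 mutant UMIs (28.6 CPM [26.6, 30.8]), a log2 ratio of -0.41 [-0.57, -0.28]. The control order from 1500015O10Rik mesenchyme-like cells through surface epithelium-like (44.8 CPM), RPE-like (44.7 CPM) and Dlk1 mesenchyme-like cells (43.0 CPM) down to progenitor-like cells was not resolved, because each neighbouring pair of intervals overlapped. In the mutant library surface epithelium-like cells had 6 UMIs (7.18 CPM) and RPE-like cells 18 UMIs (7.39 CPM), and both stood below every mesenchyme-like class of at least 50 cells. Lens-like cells, 67 in the control and 0 in the mutant library, had 7 UMIs of Aldh1a1 (72.2 CPM [29.0, 149]).

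Most of the Aldh1a1 of control RPE-like cells came from a few cells with little of the pigment epithelium profile. Of the 520 cells, 492 had no Aldh1a1 UMI, 19 had 1 to 4 (25 UMIs together) and 9 had at least 5, and those 9 held 122 of the 147 UMIs. In the 492 cells the summed level of 10 RPE markers was 30386 CPM and in the 9 cells 399 CPM, with Rpe65, Slc6a20a and Rdh5 at 0. Ciliary margin markers, which mark the rim between retina and RPE, showed the reverse, 933 CPM in the 492 and 3924 CPM in the 9 cells with 8 of 8 markers present. That list is not specific to the rim in these data. Of its 8 markers 5 also counted as present in the 1500015O10Rik mesenchyme-like cluster and 5 in a surface epithelium-like cluster, so the identity of the 9 cells is not resolved. Progenitor markers stood at 1429 and 4797 CPM, with Sfrp2, Sox2 and Nr2e1 at 0 in the 9 cells. Among the mutant RPE-like cells 202 had no UMI, 9 had 12 UMIs together and 1 had 6. With RPE-like cells limited to those with at least 1% of their UMIs in RPE markers (429 control and 167 mutant cells, a limit added after the values were seen), Aldh1a1 came to 8 and 4 UMIs, 2.70 and 1.83 CPM. The study reports several of these markers, Pmel, Tyrp1 and Rdh5 among them, as lower in mutant RPE. The limit may therefore keep unlike cells in the libraries, and the kept cells had medians of 2542 control and 12616 mutant UMIs.

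**Figure D2:**
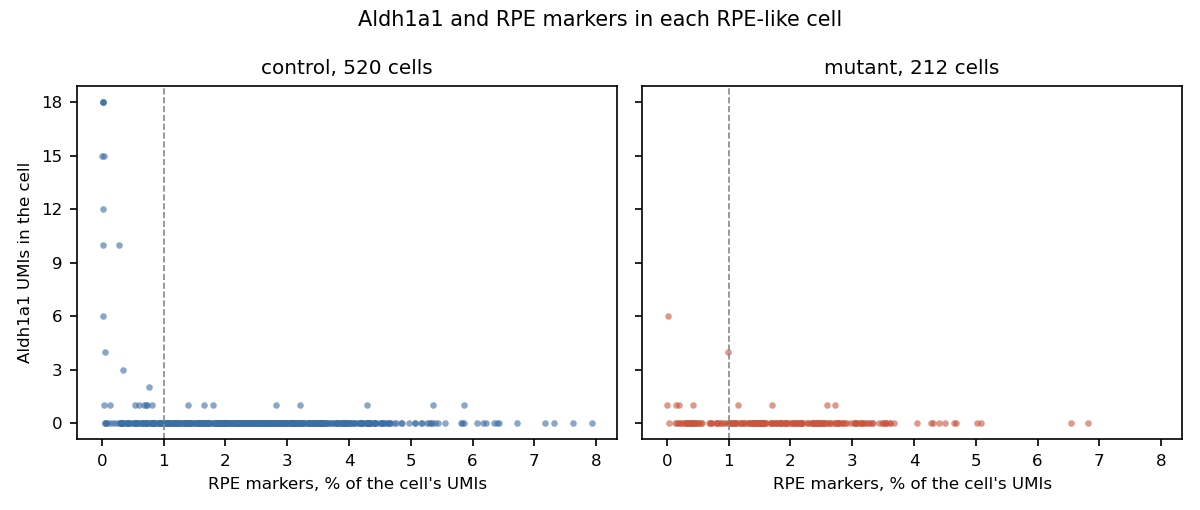
Each point is an RPE-like cell, with the percent of its UMIs in 10 RPE markers on the horizontal axis and its number of Aldh1a1 UMIs on the vertical axis, a panel for each library and a dashed line at 1%. The 9 control cells with at least 5 Aldh1a1 UMIs lie between 0.00844% and 0.282% RPE marker UMIs, against a median of 2.43% in cells without Aldh1a1.

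Inside the progenitor-like class, Aldh1a1 went with known dorsal genes and Aldh1a3 with known ventral genes. In the control library 422 progenitor-like cells (9.58%) had Aldh1a1 UMIs only, 647 (14.7%) had Aldh1a3 UMIs only and 83 had both; in the mutant library the numbers were 409 (8.15%), 1225 (24.4%) and 98. The dorsal gene Efnb2, an ephrin of the dorsoventral axon map, was at 174 CPM in Aldh1a1 cells and 32.7 CPM in Aldh1a3 cells of the control, and at 212 and 39.1 CPM in the mutant library. Tbx5, a dorsal transcription factor, was at 15.6 and 0.852 CPM in control and 13.0 and 0.288 CPM in the mutant library. Vax2, a homeobox factor of the ventral retina, ran the other way, with 9.67 CPM in Aldh1a1 cells and 65.3 CPM in Aldh1a3 cells of the control and 12.6 and 74.5 CPM in the mutant library. These patterns were alike in both libraries. The ventral receptor genes Bmpr1b (3.36 and 17.9 CPM in the control) and Ephb2 (50.4 and 81.8 CPM) were also higher in Aldh1a3 cells, and the dorsal gene Tbx2 (108 and 72.7 CPM) in Aldh1a1 cells. Bmp4 did not separate the control groups, at 1.68 and 1.70 CPM.

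**Figure D3:**
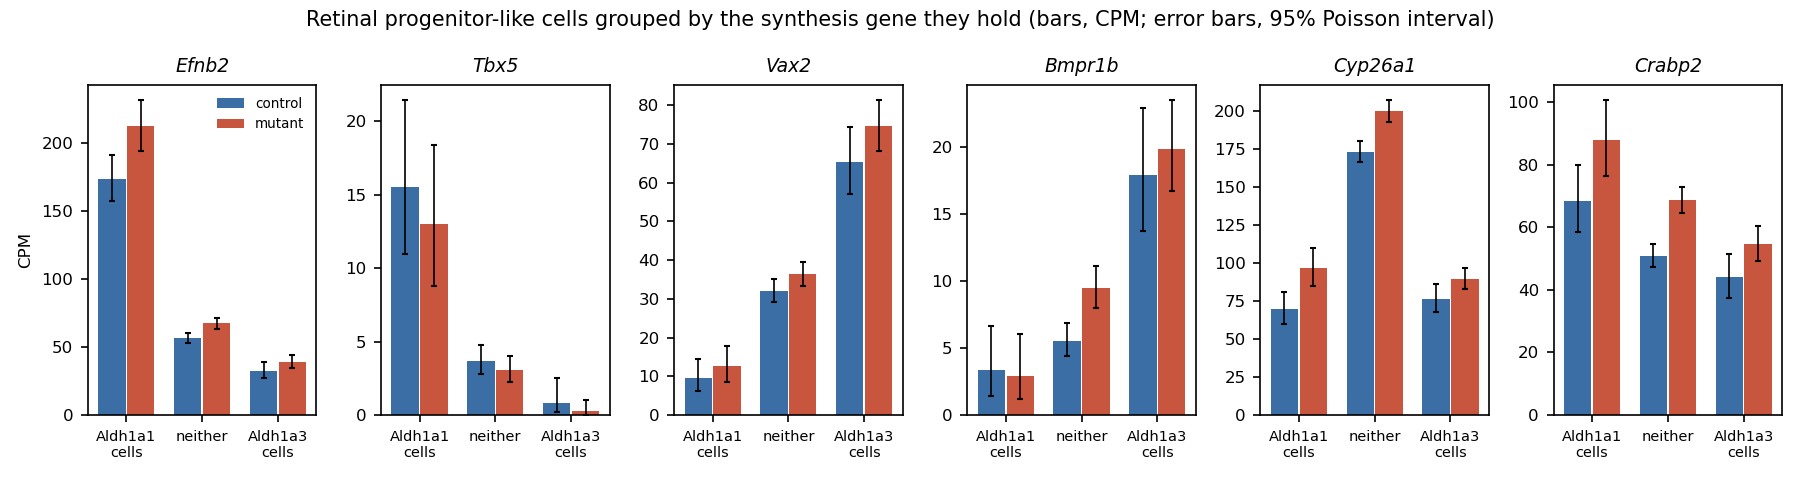
CPM (vertical axes, a panel for each gene) of the dorsal genes Efnb2 and Tbx5, the ventral genes Vax2 and Bmpr1b, and of Cyp26a1 and Crabp2 in retinal progenitor-like cells with Aldh1a1 UMIs only, with neither enzyme or with Aldh1a3 UMIs only, in control (blue) and mutant (red) libraries, with error bars for 95% Poisson intervals. Efnb2 and Tbx5 are highest with Aldh1a1 and Vax2 with Aldh1a3, and Cyp26a1 is highest in cells with neither (173 CPM control, 200 CPM mutant).

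The same axis genes differed somewhat between the libraries over all progenitor-like cells. Their levels by sex-linked group are not given here, and the part of sex, animal or genotype in these differences cannot be told apart. Ventral Vax2 was at 35.3 CPM in control and 45.6 CPM in the mutant library (log2 ratio 0.36 [0.24, 0.50]), Bmpr1b at 7.62 and 12.1 CPM (0.60) and Vax1 at 1.68 and 3.096 CPM (0.61). Ephb2 was at 56.7 and 65.6 CPM (0.21), so that 4 of the 5 ventral genes had intervals above 0 (32% of all genes in this class had an interval apart from 0 in either direction), and Ephb3 gave 0.06 [-0.15, 0.29]. Of the 5 dorsal genes, Tbx5 at 4.77 and 3.37 CPM (-0.40), Tbx2 at 98.0 and 88.5 CPM (-0.15) and Bmp4 at 1.82 and 1.04 CPM (-0.46) had intervals below 0, Efnb2 at 66.7 and 74.3 CPM (0.15) above it, and Tbx3 gave 0.00 [-0.11, 0.12].

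Cells with Aldh1a1 or Aldh1a3 differed by further genes, which were picked for a difference shared by both libraries, so their likeness between libraries is no separate result. Progenitor-like cells with an Aldh1a1 UMI had more Nr2f2, which encodes the orphan receptor COUP-TFII (141 against 51.6 CPM in the control, 169 against 45.0 CPM in the mutant library), and more Necab2 (67.1 against 15.8 CPM and 61.7 against 21.2 CPM). Those with an Aldh1a3 UMI had less Nr2f2 (25.3 against 73.2 CPM and 22.3 against 75.6 CPM) and more of Vax2os, the antisense partner of Vax2 (69.6 against 21.9 CPM and 88.8 against 31.6 CPM). Both kinds of cell had lower Cyp26a1 than the other progenitor-like cells.

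Cyp26a1, the main retinoic acid-degrading enzyme of the early retina, was highest in retinal progenitor-like cells. These held 3045 control UMIs (142 CPM [137, 147]) and 4040 mutant UMIs (156 CPM [152, 161]), a log2 ratio of 0.14 [0.07, 0.20], and 75.6% and 86.1% of all Cyp26a1 UMIs. Igfbp7 mesenchyme-like cells were next with 293 and 153 UMIs (78.2 CPM [69.5, 87.7] and 77.1 CPM [65.4, 90.4]), then 1500015O10Rik mesenchyme-like cells with 171 and 151 UMIs (54.2 and 66.3 CPM) and surface epithelium-like cells with 62 and 27 UMIs (49.6 and 32.3 CPM). Progenitor-like cells stood apart from all others. The Igfbp7 and 1500015O10Rik classes were apart in the control and overlapped in the mutant library, and the level dropped to 12.4 and 18.3 CPM in neurogenic-like cells. In red blood-like cells 8 UMIs in each library gave 8.57 and 8.88 CPM, so levels of that size in other classes cannot be told from free RNA.

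Synthesis and breakdown genes were highest in different progenitor-like cells. In the control library Cyp26a1 was at 69.8 CPM in cells with Aldh1a1 only, 76.4 CPM in cells with Aldh1a3 only, 42.7 CPM in cells with both and 173 CPM in cells with neither. In the mutant library the levels were 96.7, 89.6, 38.3 and 200 CPM in the same order. Cells with neither enzyme were the shallowest, with a median of 4293 UMIs in the control against 5140 and 5098 UMIs in cells with Aldh1a1 only and Aldh1a3 only, and 4507 against 5257 and 5285 UMIs in the mutant library; the part of depth in the Cyp26a1 contrast was not tested. Among thinned progenitor-like cells, 7 control cells had both Aldh1a3 and Cyp26a1 UMIs where the product of the separate shares gives 23.4, and 25 mutant cells where it gives 47.4. Aldh1a1 and Cyp26a1 were found together in 7 cells of each library, against products of 15.2 and 13.8.

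Progenitor-like cells with a Cyp26a1 UMI also differed in other genes. Npy, which encodes neuropeptide Y, was at 85.7 CPM with and 47.0 CPM without a Cyp26a1 UMI in the control and at 114 and 56.7 CPM in the mutant library, and the axon guidance receptor gene Robo3 at 13.5 and 5.03 CPM and at 12.9 and 2.99 CPM. Vax2 was lower in the same cells, at 16.0 against 44.4 CPM and 18.4 against 59.6 CPM. In the Igfbp7 mesenchyme-like class, the difference in 1500015O10Rik ran opposite to that seen with Aldh1a2: cells with a Cyp26a1 UMI had 161 CPM of that gene against 53.0 CPM in the other control cells, and 438 against 49.97 CPM in the mutant library. The mesenchymal factor gene Tbx18 was lower in them (35.8 against 83.9 CPM and 31.5 against 79.7 CPM). In that class 8 thinned control cells had both Cyp26a1 and Crabp2 UMIs, against a product of 1.73, and 1 mutant cell did, against 0.824.

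Cyp26b1, the second breakdown enzyme, was highest in endothelial-like cells, with its UMIs spread unevenly among them. The class held 459 control UMIs (136 CPM [124, 149]) and 266 mutant UMIs (142 CPM [125, 160]), a log2 ratio of 0.06 [-0.17, 0.28]. A UMI of it was found in 101 of 434 control and 51 of 167 mutant endothelial-like cells, at medians of 4205 and 9074 UMIs per cell, and the highest number in 1 cell was 31 (control) and 56 (mutant). Endothelial-like cells made up 3.48% of control and 1.54% of mutant cells but held 54.1% and 45.9% of the Cyp26b1 UMIs. Mesenchyme-like cells held most of the others (31.6% and 40.5%), with 92 and 70 UMIs in the Kera class (40.7 and 30.6 CPM) and 119 and 131 UMIs in the 1500015O10Rik class (37.7 and 57.5 CPM). These classes overlapped in the control library and were apart in the mutant library, where the 1500015O10Rik class was the higher of the pair. In progenitor-like cells the level was 0.748 and 0.387 CPM, and red blood-like cells had 0 UMIs in both libraries.

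The endothelial-like cells with Cyp26b1 differed from the others by genes picked in the same way, for a difference shared by both libraries. They had more Ltc4s, the leukotriene C4 synthase gene (308 against 27.3 CPM in control and 331 against 36.9 CPM in the mutant library), more of the ligand genes Ihh (328 against 30.4 CPM and 171 against 23.5 CPM) and Bmp2 (75.6 against 16.3 CPM and 74.4 against 15.9 CPM), and more Cd24a (655 against 122 CPM and 506 against 103 CPM). They had less of the fatty acid transport genes Fabp4 (194 against 2769 CPM and 62.7 against 3165 CPM), Fabp5 (51.9 against 407 CPM and 80.2 against 582 CPM) and Cd36 (20.03 against 129 CPM and 2.92 against 167 CPM). Fabp5 is itself a retinoic acid-binding protein of the wider pathway list.

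Crabp1, a binding protein, was concentrated in a single neuronal population. The amacrine-like population led by Meis2, one of 2 amacrine-like populations, held 2776 control UMIs (1402 CPM [1350, 1455]) and 3771 mutant UMIs (1277 CPM [1236, 1318]), which was 55.5% and 62.4% of all Crabp1 UMIs. The log2 ratio was -0.13 [-0.21, -0.06]. The amacrine-like population led by Prdm13 had 57 and 102 UMIs (30.6 and 41.9 CPM), so that this gene separated the amacrine-like populations far more than it separated the libraries. Kera mesenchyme-like cells were second with 914 and 993 UMIs (405 CPM [379, 432] and 434 CPM [408, 462]), and 1500015O10Rik mesenchyme-like cells next with 262 and 165 UMIs (83.0 and 72.4 CPM). Neighbours in this order were apart in both libraries. Progenitor-like cells had 385 and 465 UMIs, 18.0 CPM in each library with a log2 ratio of 0.00 [-0.20, 0.20].

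Inside the Meis2 amacrine-like class Crabp1 was uneven. In the control 118 cells had no UMI, 63 had 1 to 4 and 155 had at least 5, which together held 2635 UMIs; in the mutant library the numbers were 172, 115 and 205 cells, the last with 3527 UMIs. After thinning, 45.8% of control cells had a UMI. Cells with Crabp1 had more Bhlhe22 (133 against 18.3 CPM in control and 165 against 29.9 CPM in the mutant library), which encodes a bHLH factor of amacrine subtypes, more Robo1 (79.8 against 4.99 CPM and 61.5 against 12.4 CPM) and more AI593442 (522 against 81.5 CPM and 470 against 72.2 CPM). They had less Prox1 (20.3 against 91.4 CPM and 15.1 against 91.8 CPM) and less of the glutamate transporter gene Slc1a6 (82.7 against 362 CPM and 82.7 against 291 CPM). In Kera mesenchyme-like cells, a Crabp1 UMI went with more of the metallothionein gene Mt3 (157 against 13.2 CPM and 300 against 49.3 CPM) and Fgf21 (95.1 against 16.4 CPM and 139 against 4.29 CPM), and with less of the collagen gene Col8a1 (24.6 against 174 CPM and 36.8 against 191 CPM).

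Crabp2, the other binding protein, was shared between mesenchyme and retina, and over all cells its ratio between the libraries was below 0 in some mesenchyme-like and above 0 in some neural classes. In 1500015O10Rik mesenchyme-like cells it had 720 control UMIs (228 CPM [212, 245]) and 378 mutant UMIs (166 CPM [150, 183]), a log2 ratio of -0.46 [-0.64, -0.28]. In Igfbp7 mesenchyme-like cells it had 412 and 160 UMIs (110 and 80.7 CPM), a ratio of -0.44 [-0.72, -0.18]. Both mesenchyme-like classes were thus lower in the mutant library by the counting interval. In progenitor-like cells it had 1110 control UMIs (51.9 CPM [48.9, 55.01]) and 1735 mutant UMIs (67.1 CPM [64.0, 70.4]), a ratio of 0.37 [0.26, 0.48]. In neurogenic-like cells it had 180 and 306 UMIs (40.7 and 59.6 CPM; 0.54 [0.28, 0.82]), and in Prdm13 amacrine-like cells 65 and 136 UMIs (34.8 and 55.8 CPM; 0.66 [0.24, 1.13]). In cells with Xist but no Y-linked transcript the ratio was -0.25 in the progenitor-like class (33 and 1135 UMIs) and 0.10 in the Igfbp7 class. In cells with the reverse it was 0.69 and -1.18. The direction in these classes thus differed between the sex-linked groups, though -0.25 rests on 33 control UMIs and a reversal was not tested. In 1500015O10Rik mesenchyme-like cells the ratio was below 0 in both groups. Over all cells the 3 neural classes were higher in the mutant library, while Kera (54.9 and 53.8 CPM) and Dlk1 (52.1 and 54.5 CPM) mesenchyme-like cells had overlapping intervals. The control order from the Kera class down through the Dlk1, progenitor-like, RPE-like and surface epithelium-like classes (54.9 to 42.4 CPM) was not resolved.

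Over the whole eye cup the Crabp2 differences came to 3456 control and 3397 mutant UMIs, a log2 ratio of 0.07. Mesenchyme-like cells held 44.3% of them in the control and 24.0% in the mutant library. Whole-library totals mix cell number with level, and fewer cells of a type and less RNA per cell cannot be told apart in them: mesenchyme-like cells were 10.3% of control and 7.103% of mutant cells, and neural retina-like cells 57.9% and 76.5%. In progenitor-like cells with Aldh1a1 only, Crabp2 was at 68.5 CPM in control and 87.9 CPM in the mutant library, against 44.0 and 54.5 CPM in cells with Aldh1a3 only. In 1500015O10Rik mesenchyme-like cells, those with a Crabp2 UMI had more of the retinal progenitor genes Hes5 (67.8 against 25.7 CPM in control and 54.6 against 6.36 CPM in mutant cells) and Six3 (20.8 against 6.04 CPM and 29.1 against 12.7 CPM); the part of retinal RNA in the Crabp2 of this class was not tested. The thinned co-detection of Aldh1a1 and Crabp2 in progenitor-like cells was 11 and 10 cells, against products of 6.83 and 7.59.

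Rarb, the receptor gene that is itself a target of retinoic acid, was highest where Aldh1a2 was highest. Igfbp7 mesenchyme-like cells had 427 control UMIs (114 CPM [103, 125]) and 213 mutant UMIs (107 CPM [93.5, 123]), apart from every other named class. Pericyte-like cells had 38 and 34 UMIs (48.8 and 51.9 CPM), endothelial-like cells 115 and 66 UMIs (34.1 and 35.1 CPM) and 1500015O10Rik mesenchyme-like cells 87 and 58 UMIs (27.6 and 25.5 CPM), and these neighbours overlapped. Progenitor-like cells were low, with 275 and 313 UMIs and 12.1 CPM in the mutant library, a log2 ratio of -0.08. In RPE-like cells Rarb had 78 control UMIs (23.7 CPM [18.7, 29.6]) in 55 of 520 cells and 28 mutant UMIs (11.5 CPM [7.64, 16.6]) in 20 of 212 cells, a log2 ratio of -0.98 [-1.72, -0.41]. No other named class of at least 50 cells in each library had a Rarb interval apart from 0. Among RPE-like cells with at least 1% RPE marker UMIs the Rarb ratio was -1.07 [-1.83, -0.47] (77 and 26 UMIs). That limit rests in part on genes reported as lower in mutant RPE, so it need not pick like cells in both libraries. In RPE-like cells with Y-linked transcripts and no Xist the ratio was -0.34 (37 and 10 UMIs), and in those with the reverse -1.39 (24 and 14 UMIs). After thinning the share of RPE-like cells with a Rarb UMI was 1.69% in the control and 2.16% in the mutant library, opposite in direction to the CPM, so no order is read from the shares. The mesenchyme marker sum of RPE-like cells, given above, was also lower in the mutant library, and its part in the Rarb ratio was not tested.

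Genes most like each member across cell classes were found by the Pearson correlation of log2(CPM + 1) over 30 points, the 15 named classes in 2 libraries, among 13567 genes. The 3 nearest to Aldh1a2 were Alx4 (0.967), Rarres2 (0.945) and Gm13470 (0.942), and the nearest to Rarb were Chst2 (0.921), Gmds (0.896) and Gnas (0.888). Aldh1a1 had Gli2 (0.900) and Evc (0.886) among its 3 nearest, and Crabp2 was nearest to Fbxo17 (0.767), Gli2 (0.763) and Ak4 (0.756), and Crabp1 to C1ql2 (0.857), Cxcl14 (0.840) and Anks1b (0.810). Cyp26b1 was nearest to Plpp1 (0.904), Aqp1 (0.876) and Fam198b (0.875). Aldh1a3 was nearest to Fam167a (0.806), Efcab1 (0.779) and Enkur (0.738). The weakest best match was that of Cyp26a1, with Crym (0.706), Slitrk2 (0.702) and Gli1 (0.692). The points share libraries and class boundaries and are not independent.

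The genotypes were then compared in every class of at least 50 cells in each library, as the log2 ratio of mutant over control CPM with 1 CPM added to both. Of 152 possible ratios for 8 genes and 19 classes, 102 had at least 20 UMIs over both libraries. Of these, 7 were lower and 8 higher in the mutant library by at least 2-fold, which is 6.86% and 7.84%, and 87 were not past that fold. For all genes with at least 20 UMIs, 2.07% of 186541 ratios were lower and 1.38% higher. Of the 15 ratios past the fold, 11 rested on fewer than 50 UMIs.

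**Figure D4:**
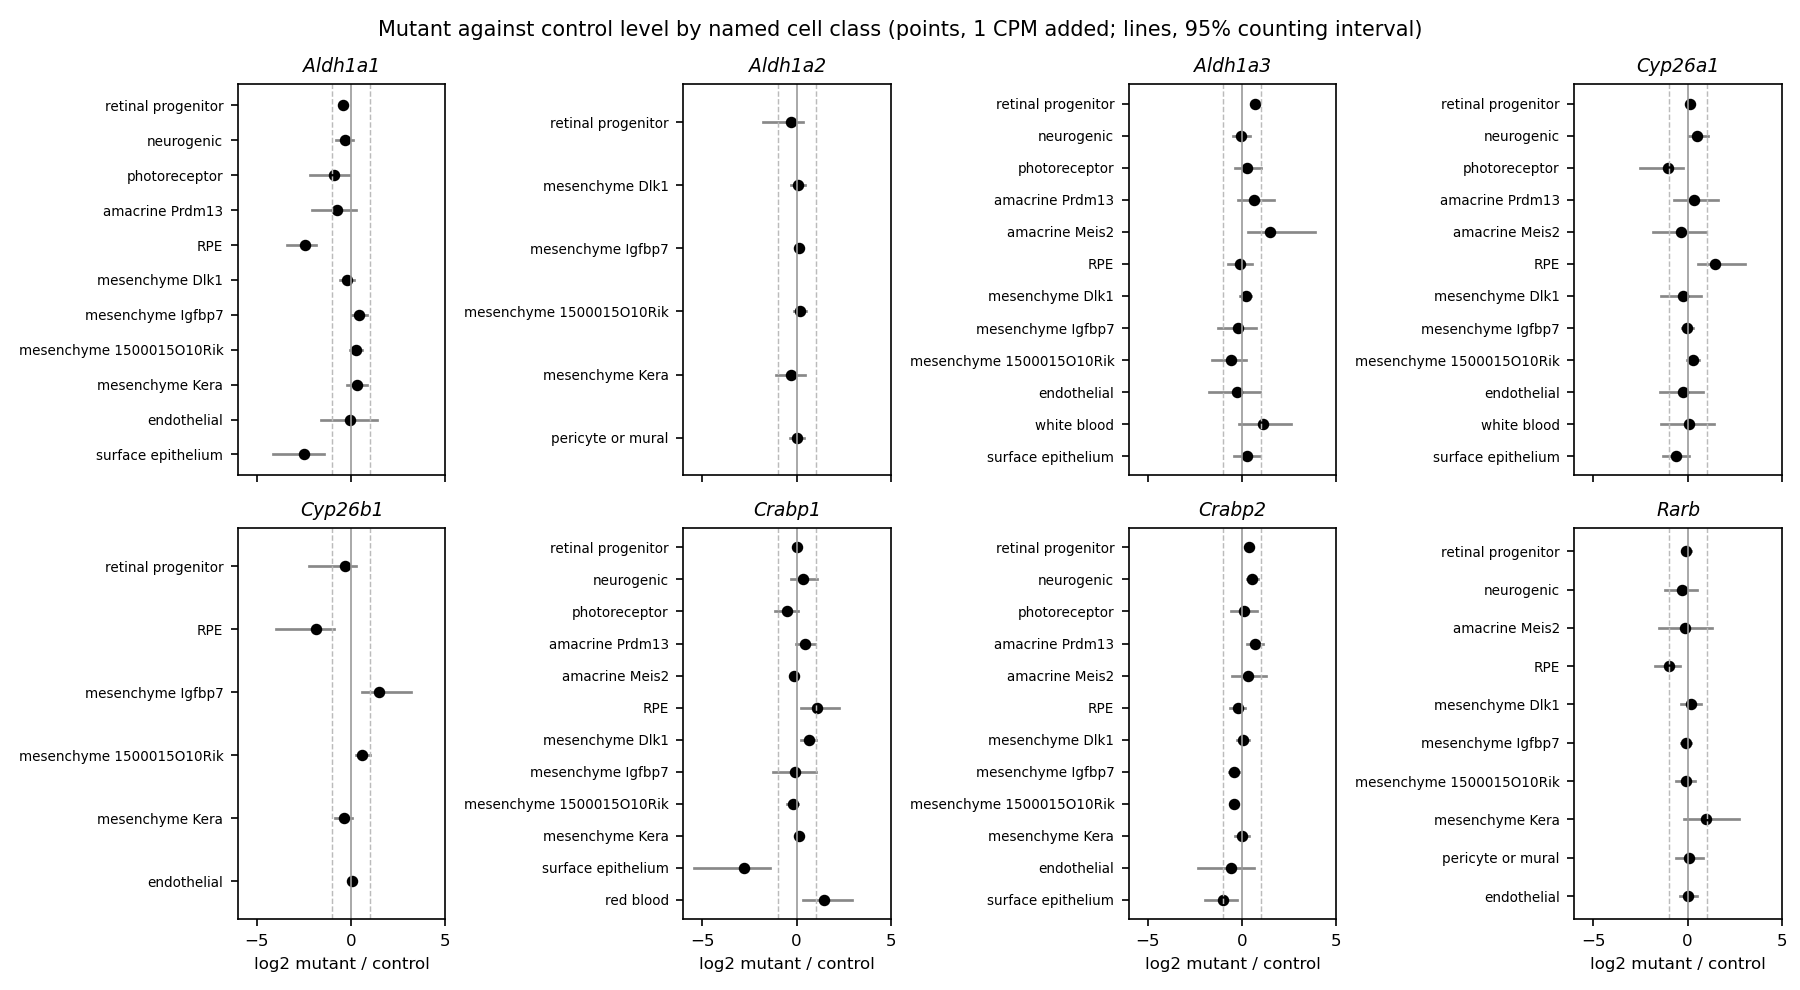
Log2 ratio of mutant over control CPM for each of the 8 genes (panels) in each named cell class with at least 20 UMIs (rows). Points are ratios with 1 CPM added, bars are 95% Poisson intervals of the plain ratio, and dashed lines mark 2-fold. In progenitor-like cells Aldh1a3 sits at 0.69 and Aldh1a1 at -0.41, both inside the 2-fold lines, and the points past them lie mostly in RPE-like and surface epithelium-like cells with wide bars.

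In retinal progenitor-like cells all 8 genes had enough UMIs and none was past 2-fold in either direction, where 0.758% of 13975 genes were lower and 0.122% higher. By the counting interval of the ratio 4 of the 8 lay apart from 0, Aldh1a1 lower and Aldh1a3, Cyp26a1 and Crabp2 higher, where 32% of genes did. The median ratio of the members was -0.04 and that of all genes 0.05. Within each of the 5 progenitor clusters the direction held for Aldh1a3 and Aldh1a1: Aldh1a3 went from 56.9 to 89.3 CPM and from 32.1 to 50.9 CPM in the clusters led by Hes5, from 89.0 to 122 CPM in the cluster led by S-phase histone genes, from 48.0 to 102 CPM in that led by mitosis genes such as Ube2c, and from 41.5 to 76.3 CPM in that led by Cdc20. Aldh1a1 was lower in the mutant library in the same 5 clusters, by the most in the mitosis cluster (45.8 and 27.4 CPM) and the least in the histone cluster (30.4 and 27.1 CPM). The mesenchyme marker sum of progenitor-like cells was lower in the mutant library too, as given above, and its part in the Aldh1a1 ratio was not tested.

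These differences were not the same in the sex-linked groups of cells. Progenitor-like cells that had Xist but lacked Y-linked UMIs (Xist cells) numbered 97 in the control and 3686 in the mutant library, and those that had Y-linked UMIs but lacked Xist (Y-linked cells) 2541 and 697. Aldh1a3 was at 108 CPM [79.7, 142] in the Xist cells (49 UMIs) and 54.0 CPM in the Y-linked cells (711 UMIs) of the control, and at 84.7 CPM (1583 UMIs) and 119 CPM [108, 130] (460 UMIs) in those of the mutant library. The spread between the sex-linked groups of the control library was thus as large as the difference between the libraries, and the order of the groups was opposite in the mutant library. The library difference was resolved in the Y-linked cells only, since the mutant level of Xist cells lay within the control interval. Aldh1a1 was at 19.8 CPM [9.1, 37.6] and 42.2 CPM in the control groups and at 27.0 and 35.5 CPM in the mutant groups. Each pool held 3 eye cups, and the part of animal, sex or genotype in these differences cannot be told apart.

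**Figure D5:**
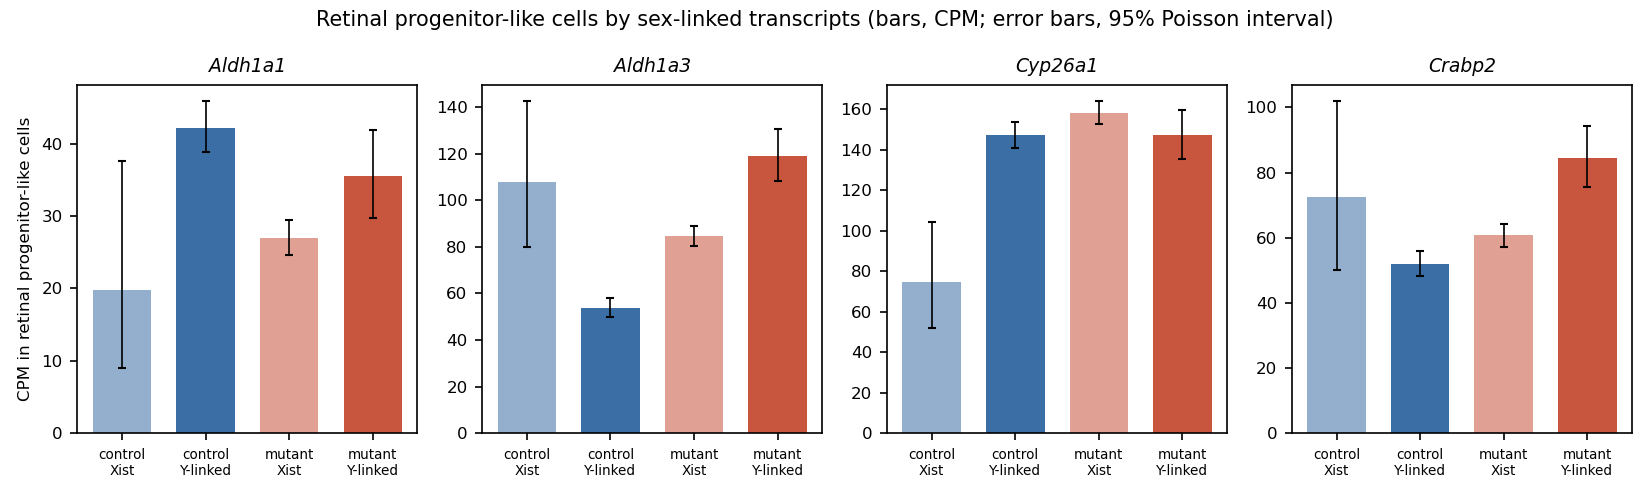
CPM (vertical axes) of Aldh1a1, Aldh1a3, Cyp26a1 and Crabp2 in retinal progenitor-like cells split into Xist cells and Y-linked cells, as defined above, for both libraries, with error bars for 95% Poisson intervals. For Aldh1a3 the control groups sit at 108 and 54.0 CPM and the mutant groups at 84.7 and 119 CPM.

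In RPE-like cells 7 members had enough UMIs, of which 2 were lower by at least 2-fold (background 5.08% of 11158 genes) and 2 higher (background 2.53%), and the intervals of 5 lay apart from 0 (background 27.6%). Aldh1a1, with 147 and 18 UMIs, gave -2.45 [-3.39, -1.89], and with RPE markers at 1% or more of UMIs -0.39 [-2.74, 1.34]. Cyp26b1 had 33 control UMIs (10.0 CPM) in 20 cells and 5 mutant UMIs (2.05 CPM), a ratio of -1.85 [-4.00, -0.92], and it stayed at -1.88 with the marker limit; the part of the unequal mesenchyme RNA of these cells was not tested. The members higher in mutant RPE-like cells rested on few cells: Cyp26a1 had 9 and 22 UMIs (1.42 [0.55, 3.02]), the mutant ones in 11 cells, and Crabp1 15 and 26 UMIs (1.07 [0.26, 2.25]), the mutant ones in 7 cells with 16 in 1 of them. Under the marker limit Cyp26a1 gave 0.70 [-0.55, 2.42], with 8 and 11 UMIs, and Crabp1 turned to -0.99 [-3.92, 0.48], with 11 and 3 UMIs. The Cyp26a1 levels over all RPE-like cells, 2.74 and 9.03 CPM, cannot be told from free RNA, with red blood-like cells at 8.57 and 8.88 CPM. Aldh1a3 (51 and 35 UMIs, -0.10) and Crabp2 (149 and 94 UMIs, -0.23 [-0.62, 0.15]) had intervals that include 0. Mutant RPE-like cells were fewer and deeper, with a median of 10166 UMIs against 2442.5 in the control.

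In surface epithelium-like cells 5 members had enough UMIs and 3 were lower by at least 2-fold (background 4.28%) and 0 higher (background 2.2%), in 134 control and 67 mutant cells. Aldh1a1 had 56 and 6 UMIs (-2.49 [-4.15, -1.43]), with 33 of the control UMIs in 10 cells, and Crabp2 53 and 17 UMIs (42.4 and 20.3 CPM, -1.03 [-1.94, -0.25]). Crabp1 had 38 and 3 UMIs (-2.78 [-5.42, -1.43]), with 33 of the 38 in 2 cells. The mesenchyme marker sum was 4192 CPM in control and 73.0 CPM in mutant surface epithelium-like cells, and its part in these ratios was not tested.

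Elsewhere in the neural retina few members moved past 2-fold. In photoreceptor-like cells 1 of 5 was lower (background 1.37%) and 0 higher (background 0.458%), Cyp26a1 with 23 and 11 UMIs (5.58 and 2.19 CPM, -1.04 [-2.53, -0.25]), at levels under those of red blood-like cells. The intervals of 2 of 5 lay below 0 there (background 14.6%), the other being Aldh1a1 with 25 and 14 UMIs (-0.90 [-2.18, -0.12]). In Meis2 amacrine-like cells 1 of 5 was higher (background 1.34%) and 0 lower (background 1.13%), Aldh1a3 with 4 and 22 UMIs (2.02 and 7.45 CPM, 1.48 [0.32, 3.88]), and 2 of 5 had intervals apart from 0 (background 11.6%), Aldh1a3 above it and Crabp1 below. None of 6 was past the fold in neurogenic-like cells (background 0.998% lower and 0.356% higher), where Crabp2 and Cyp26a1 (55 and 94 UMIs, 0.52 [0.06, 1.06]) had intervals above 0 (2 of 6 members, background 16.2%), and none of 5 in Prdm13 amacrine-like cells (background 1.14% lower and 1.23% higher), where 1 of 5, Crabp2, had an interval apart from 0 (background 11%).

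In mesenchyme, vessels and blood, tissues that arise outside the eye field, most ratios were inside 2-fold. Igfbp7 mesenchyme-like cells had 1 of 8 members past the fold (background 1.43% lower and 1.15% higher), Cyp26b1 with 9 and 17 UMIs (2.40 and 8.57 CPM, 1.49 [0.59, 3.18]), while Aldh1a2 was at 0.11 [-0.03, 0.25]. In that class the intervals of 3 of 8 lay apart from 0 (background 14.2%), those of Cyp26b1 and Aldh1a1 (135 and 96 UMIs, 36.03 and 48.4 CPM, 0.42 [0.03, 0.81]) above it and that of Crabp2 below. No member was past it in the Dlk1 class (7 members, background 1.34% lower and 0.406% higher), the 1500015O10Rik class (8 members, 0.944% and 0.982%), the Kera class (6 members, 0.955% and 1.22%), endothelial-like cells (6 members, 3.39% and 0.595%) or pericyte-like cells (2 members, 2.41% and 2.34%). By the interval, 1 of 7 lay apart from 0 in the Dlk1 class (background 10.5%), Crabp1 with 118 and 101 UMIs (25.6 and 40.2 CPM, 0.63 [0.25, 1.04]). In the 1500015O10Rik class 2 of 8 did (background 10.4%), Cyp26b1 above 0 (0.60 [0.24, 0.98]) and Crabp2 below, and in the Kera class (background 10.2%) and endothelial-like cells (background 13.9%) none did. In red blood-like cells Crabp1 gave 1.47 with 8 and 23 UMIs (background 2.59% lower and 9.1% higher), 21 of the 23 in 1 cell. White blood-like cells had 1 of 2 members past the fold (background 5.51% lower and 1.77% higher), Aldh1a3 with 11 and 10 UMIs (1.10 [-0.17, 2.59]).

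The 4 unnamed populations of sufficient size held part of these transcripts too. The population led by Gm26870, shallow cells with a median of 1049 control and 906 mutant UMIs, had 6 members with enough UMIs, 0 lower (background 3.91%) and 1 higher (background 3.69%), Rarb with 14 and 11 UMIs (9.52 and 25.5 CPM). Its intervals lay above 0 for 3 of the 6 (background 13.3%), the others being Cyp26a1 (125 and 54 UMIs, 85.0 and 125 CPM) and Aldh1a3 (75 and 34 UMIs, 51.0 and 78.9 CPM). The population led by Ankrd33b had 5 members with enough UMIs, of which 0 were lower or higher (background 1.21% each way) or apart from 0 by the interval (background 9.65%). In the population led by Igf1, 1 of 8 was lower (background 1.6%) and 1 higher (background 1.65%), Crabp1 with 25 and 4 UMIs, 21 of the 25 in 1 cell, and Aldh1a3 with 35 and 54 UMIs (21.8 and 45.7 CPM, 1.04 [0.43, 1.73]). In the population led by Gngt2 none of 2 was past the fold (background 1.24% lower and 1.59% higher).

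The wider pathway was followed with 23 more genes of retinoid supply, carriers, receptors, coregulators and known targets, all of which were in the matrices. In RPE-like cells 19 had at least 20 UMIs, 4 were lower by at least 2-fold (background 5.08%) and 0 higher (background 2.53%), and their median ratio was -0.35 against -0.02 for all genes. As many were lower in endothelial-like (4 of 18, background 3.39%), white blood-like (4 of 14, background 5.51%) and surface epithelium-like cells (4 of 15, background 4.28%), where the median ratios were 0.05, -0.01 and 0.13. Rdh10, which makes the retinaldehyde that ALDH1A enzymes use, went from 4764 UMIs (1449 CPM) to 686 UMIs (282 CPM), a ratio of -2.36 [-2.48, -2.25]. Rbp4, the plasma retinol carrier (211 and 71 UMIs, 64.2 and 29.1 CPM, -1.11 [-1.55, -0.74]), and the mesenchymal retinoic acid target Dkk2 (36 and 3 UMIs) were also among the 4. Dkk2 moved with the mesenchyme marker sum of these cells, given above, and its part in the ratio was not tested. The retinol receptor gene Stra6 stood at 455 and 391 CPM (-0.22). With RPE markers at 1% or more of UMIs the ratios were -2.37 for Rdh10 and -1.15 for Rbp4.

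In progenitor-like cells 19 of the 23 genes had enough UMIs, 2 were lower (background 0.758%) and 0 higher (background 0.122%) by at least 2-fold, and the median ratio was 0.00. Dkk2 was among them (140 and 33 UMIs, 6.54 and 1.28 CPM), again beside a lower mesenchyme marker sum. The supply gene Rdh10 was at 63.7 and 66.0 CPM there. Among receptors, Rxrg was highest in photoreceptor-like cells (334 and 500 UMIs, 81.0 and 99.6 CPM, 0.30 [0.10, 0.50]), Rarg in surface epithelium-like cells (76 and 77 UMIs, 60.9 and 92.1 CPM, 0.59 [0.12, 1.07]) and Rara in endothelial-like cells (272 and 131 UMIs, 80.7 and 69.8 CPM). Ncor1, a corepressor gene, was highest in photoreceptor-like cells (211 and 218 CPM), and the target Dkk2 in Kera mesenchyme-like cells (1880 and 1719 UMIs, 832 and 752 CPM, -0.15 [-0.24, -0.05]). Fabp5 was highest in pericyte-like cells (1213 and 1164 CPM), and the remaining breakdown enzyme gene, Cyp26c1, had 4 and 12 UMIs in progenitor-like cells.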

How the data were processed

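The deposited values were raw UMI counts per gene and cell, made by the authors with Cell Ranger 7.1.0 (per the labels' processing notes) on mm10; the matrix header names software 3.1.0, and the gene annotation behind the counts is not given in the sources used here. The authors worked in Seurat 4.1.1. Members and lists were chosen with earlier results of these data known.

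Barcodes with at least 200 genes and at most 15% mitochondrial UMIs were kept (14131 of 14305 control, 12027 of 12222 mutant; 79017429 and 76272867 UMIs deposited). Scrublet in scanpy 1.11.5 scored doublets, and the highest scores were removed at 0.8% per 1000 cells (1646 and 1214). The upper UMI limit of 2000 stated by the study was not used, since 80.2% and 92.1% of barcodes exceed it. Cells were clustered in Seurat 5.3.0 (R 4.3.3, 30 components, resolution 1) after both libraries were integrated by anchors. Of 2000 variable genes 1982 were used, since those that were among 48 member, list and sex-linked genes were left out. Cell classes were rebuilt here from at least 3 markers present; they are no annotation of the authors. The 6 unnamed populations held 17.4% and 9.17% of cells.

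UMIs were summed per class and library and divided by the class total (CPM). Intervals (95%) are exact Poisson for CPM and ratios and Clopper-Pearson for shares. PCR duplicates were collapsed by UMI, and intervals cover counting error only. A count of 0 allows up to 3 counts. Ratios add 1 CPM to each side, need 20 UMIs over both libraries and 50 cells in each, and are past the fold at an absolute log2 ratio of 1. Named genes were all members, pathway genes past the fold in RPE-like or progenitor-like cells, the pathway gene highest in each role, and for each member the 3 genes of most similar pattern (at least 200 UMIs). A few genes that this rule names are not reported here. The scripts (Python 3.11.15, numpy 2.4.6, scipy 1.17.1) were tested on simulated data. Gene positions are from GENCODE M21, promoters from RefSeq on GRCm38.p6. Alternatives tried were pseudocounts of 0.1 and 5 CPM, a size factor, no doublet removal, the 2000 UMI limit, 5% mitochondrial UMIs, thinning, resolution 2, and cells split by Xist and Y-linked UMIs; RPE markers at 1% or more and each progenitor cluster alone were added after seeing the data.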

Additional observations from a re-analysis of the deposited data

Results flagged for a closer look

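For 5 members the log2 ratio of mutant over control CPM had a counting interval above 0 in one cell class and below 0 in another. How many of all genes do the same was not counted. In single named classes 9.03% to 32% of all genes had an interval apart from 0, so the number is not read as particular to the members. The difference between the classes was not tested, and it is given as the ratio in the first class minus that in the second. For Aldh1a1 it was 2.90, between Igfbp7 mesenchyme-like cells (0.42 [0.03, 0.81], 135 and 96 UMIs) and surface epithelium-like cells (-2.49). For Cyp26a1 it was 2.47, between RPE-like cells (1.42) and photoreceptor-like cells (-1.04), both with under 40 UMIs. Among RPE-like cells with at least 1% RPE marker UMIs the Cyp26a1 ratio was 0.70 [-0.55, 2.42], an interval that includes 0. For Cyp26b1 it was 3.35, between Igfbp7 mesenchyme-like cells (1.49) and RPE-like cells (-1.85). For Crabp1 it was 4.25, between red blood-like cells (1.47, with 21 of 23 mutant UMIs in 1 cell) and surface epithelium-like cells (-2.78, with 33 of 38 control UMIs in 2 cells). For Crabp2 it was 1.69, between Prdm13 amacrine-like cells (0.66) and surface epithelium-like cells (-1.03). Over all cells the Crabp2 ratios of 1500015O10Rik mesenchyme-like and progenitor-like cells, -0.46 and 0.37, also lay on opposite sides of 0. In Xist cells they were -0.69 and -0.25, both below 0. For Aldh1a1 too, the ratio was above 0 in Igfbp7 mesenchyme-like cells (0.42) and below 0, by the interval, in progenitor-like cells. In Xist cells the Aldh1a1 ratio of progenitor-like cells was above 0.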

How the results depend on the processing

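For 102 member ratios, 793 values were recomputed under alternatives and 709 kept their direction. No paired analysis was possible because there was 1 library per genotype. For the causes of the shifts below, the cause was not tested. In Xist cells (Xist UMIs, none Y-linked) the progenitor ratios were 0.43 for Aldh1a1, -0.34 for Aldh1a3, 1.07 for Cyp26a1 and -0.25 for Crabp2, with 97 control cells; others were 0.58 for Aldh1a1 in 1500015O10Rik cells, -0.075 for Aldh1a2 in Igfbp7 cells, 0.68 for Aldh1a3 in Dlk1 cells, 0.42 for Cyp26b1 in endothelial-like cells and -0.69 for Crabp2 in 1500015O10Rik cells. In Y-linked cells (the reverse) the progenitor ratios were -0.24, 1.13, -0.0013 and 0.69 for the same 4 genes; others were -3.87 for Aldh1a1 and -0.34 for Rarb in RPE-like cells, -0.86 for Cyp26b1 in endothelial-like cells, 0.080 for Crabp1 in Meis2 amacrine-like cells and -0.26 for Crabp2 in 1500015O10Rik cells. With cells over 2000 UMIs left out, Aldh1a3 in progenitor-like cells gave -0.30 (12 and 10 UMIs), Cyp26a1 there 0.38, Cyp26b1 in endothelial-like cells 0.30 and Crabp1 in Meis2 amacrine-like cells 1.57. After thinning, Aldh1a2 in Igfbp7 cells gave -0.032, Aldh1a3 in Dlk1 cells 0.90, Cyp26b1 in endothelial-like cells 0.54, Crabp1 in Meis2 amacrine-like cells -0.0086 and Crabp2 in 1500015O10Rik cells -0.26, and 3 of 5 dorsal genes rather than 5 were higher in mutant Aldh1a1 cells. At up to 5% mitochondrial UMIs Aldh1a1 in RPE-like cells gave -0.76, and with RPE markers at 1% or more -0.39, where Crabp1 gave -0.99. In single progenitor clusters, Aldh1a1 gave -0.23, -0.16, -0.72 and -0.23 in clusters 1, 2, 3 and 10, Aldh1a3 0.45, 1.08 and 0.86 in clusters 2, 3 and 10, Cyp26a1 0.32 and -0.33 in clusters 1 and 10, and Crabp2 0.52 in cluster 3. With no doublets removed, Crabp1 in Meis2 amacrine-like cells gave -0.23, and shares of UMIs (control and mutant) were 63.6% and 60.5% for Aldh1a2 in Igfbp7 cells, 70.4% and 78.0% for Cyp26a1 in progenitor-like cells and 52.0% and 57.2% for Crabp1 in Meis2 amacrine-like cells, and at resolution 2 the last was 52.3% in the control. With no minimum of UMIs, 1 pathway gene, Lrat, was higher in RPE-like cells (2 and 17 UMIs) where the count had been 0. Depth limits the ratios, since 11 of the 15 past 2-fold rest on under 50 UMIs.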

Other observations

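An unnamed population of 162 control and 115 mutant cells, led by Spp1, Acta2, Tagln and Igf1, held transcripts of all 8 genes. Rarb was at 72.1 and 79.6 CPM (116 and 94 UMIs), Aldh1a2 at 53.4 CPM in the mutant library (95 and 63 UMIs in the 2 libraries) and Crabp2 at 58.4 and 68.6 CPM (94 and 81 UMIs). Its ratio for Cyp26b1 was 0.73 [0.06, 1.47], with 33 and 41 UMIs.

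An unnamed population with photoreceptor and amacrine genes, 104 cells in each library, had Crabp1 at 107 CPM (108 UMIs) in the control and 215 CPM (228 UMIs) in the mutant library, a log2 ratio of 0.99 [0.66, 1.34]. Melanocyte-like cells, 30 and 18 cells, had Rarb at 28.4 and 36.4 CPM (16 and 12 UMIs), and glia-like cells, 21 and 20 cells, had Aldh1a3 at 106 and 74.7 CPM (12 and 10 UMIs).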
